A study of Mus musculus with 3 samples.

Results

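Hyaluronan synthesis and binding in the aortic adventitia, the outer connective tissue layer of the vessel, was followed through 9 genes chosen by name: the synthases Has1, Has2 and Has3, the precursor enzyme Ugdh, the hyaluronidases Hyal1 and Hyal2, the receptor Cd44, and the matrix partners Tnfaip6 and Vcan. All 9 were among the 32285 genes of the count matrices. The levels came from droplet-based single-cell RNA sequencing of mouse adventitia in 3 groups: angiotensin II with voluntary wheel running (AngII_VWR), angiotensin II alone (AngII), and saline (Vehicle). Angiotensin II is a hormone that constricts vessels and raises blood pressure, and AngII_VWR shares it with AngII. Dose, duration, strain, sex and age were not given in the labels used here. The design listed 9 mice, 3 in each group, but each group was 1 library and how its mice were combined was not stated. No comparison therefore has a replicate, no test was run, and every interval below is a 95% interval for counting error alone.

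Hyaluronan is a long sugar polymer without a protein core that swells tissue with water and lies between the cells of the vessel wall. Synthases in the plasma membrane build it from UDP-glucuronic acid, which Ugdh makes from UDP-glucose, and from UDP-N-acetylglucosamine, and they push the growing chain out of the cell. Hyaluronidases cut it, Cd44 ties it to the cell surface, TSG-6 (the product of Tnfaip6) moves protein chains onto it and so crosslinks it, and versican (Vcan), a chondroitin sulfate proteoglycan, binds along it.

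After filtering, 16125 cells of AngII_VWR, 9115 of AngII and 12324 of Vehicle remained. Cells in which Col1a1, Col1a2, Dcn and Lum together took at least 1% of UMIs (counted molecules) formed the fibroblast class, with 10913 cells in AngII_VWR, 6081 in AngII and 6545 in Vehicle. Cells with at least 0.3% of UMIs from C1qa, C1qb and C1qc formed the macrophage class, with 3221, 1998 and 2537 cells in the same order of libraries. The rest held 1915, 1022 and 3177 cells, and 76, 14 and 65 cells that met both rules were set apart. The names were checked against 8 further markers of each type. Fibroblast markers summed to 24561, 24725 and 30839 UMIs per 1000000 UMIs of the class (CPM) in the fibroblast class of AngII_VWR, AngII and Vehicle, and macrophage markers there summed to 262, 132 and 115 CPM. In the macrophage class the macrophage markers summed to 14385, 19492 and 16981 CPM. Each of the 8 markers of either type stood higher in its own class than in the other in every library, though none was at 0 in the other. The fibroblast class is a range on a scale, since 27.6% of AngII_VWR cells, 15.8% of AngII cells and 34.7% of Vehicle cells had between 0.5% and 2% of UMIs from the 4 genes. Fibroblasts carried a median of 4590 UMIs in AngII_VWR, 12993 in AngII and 9494 in Vehicle. The libraries shared between 44 and 80 cell barcodes in pairs.

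Has1 and Tnfaip6, the members whose levels stood farthest apart between AngII_VWR and AngII, lie on chromosomes 17 and 2. In the mm10 coordinates of the GENCODE annotation Has1 spans chr17:17843323-17855205 on the minus strand and Tnfaip6 chr2:52038009-52056686 on the plus strand. Their promoters are given as the 250 bases before the RefSeq start (GRCm38.p6), with Ugdh and Vcan, whose levels stood lower in AngII than in Vehicle. The windows are chr17:17855189-17855438 (minus strand) for Has1, chr2:52037863-52038112 (plus strand) for Tnfaip6, chr5:65435843-65436092 (minus strand) for Ugdh and chr13:89742513-89742762 (minus strand) for Vcan. Each is written 5′ to 3′ along the gene, and capitals mark matches to the motifs searched.
Has1: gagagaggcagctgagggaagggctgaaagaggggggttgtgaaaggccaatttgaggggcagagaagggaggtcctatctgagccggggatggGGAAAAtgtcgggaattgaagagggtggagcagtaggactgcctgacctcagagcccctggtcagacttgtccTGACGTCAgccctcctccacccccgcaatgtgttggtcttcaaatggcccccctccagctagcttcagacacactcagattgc
Tnfaip6: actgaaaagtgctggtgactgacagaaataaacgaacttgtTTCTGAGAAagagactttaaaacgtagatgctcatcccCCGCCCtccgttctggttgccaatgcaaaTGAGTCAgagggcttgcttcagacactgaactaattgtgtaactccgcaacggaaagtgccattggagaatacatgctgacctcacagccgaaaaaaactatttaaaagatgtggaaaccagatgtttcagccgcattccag
Ugdh: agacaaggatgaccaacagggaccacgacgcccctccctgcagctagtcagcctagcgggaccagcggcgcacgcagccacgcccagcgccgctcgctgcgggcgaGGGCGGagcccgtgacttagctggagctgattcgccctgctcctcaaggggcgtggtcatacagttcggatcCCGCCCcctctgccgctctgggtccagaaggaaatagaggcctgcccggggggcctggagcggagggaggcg
Vcan: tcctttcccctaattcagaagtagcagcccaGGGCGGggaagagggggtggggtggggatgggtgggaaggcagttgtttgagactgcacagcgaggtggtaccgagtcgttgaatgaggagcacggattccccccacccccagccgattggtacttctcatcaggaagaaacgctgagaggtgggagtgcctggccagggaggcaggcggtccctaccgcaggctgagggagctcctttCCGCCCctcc

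Both strands were searched for a TATA box (TATAAA), a cyclic AMP response element (CRE, TGACGTCA), AP-1 (TGANTCA), STAT (TTCNNNGAA), NFAT (GGAAAA), NF-kB (by name) and a GC box (GGGCGG), and none of these matches overlapped another motif. The Has1 window held the CRE 83 to 76 bases before the start and the NFAT motif. A CRE stood in 1.55% of 32851 mouse promoters of this length and an NFAT motif in 20.4%. The Tnfaip6 window held AP-1 142 to 136 bases before the start, STAT and a GC box, found in 6.75%, 7.02% and 32.7% of promoters. The Ugdh and Vcan windows held GC boxes and no other motif of the search. The Has1 and Tnfaip6 windows thus shared no motif. Promoters of 7 of the 9 members were matched, and the windows of Has2 and Has3 are not shown.

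Has1 and Has2 were fibroblast genes in all 3 libraries. Has1 stood at 145 CPM in AngII_VWR fibroblasts (142 to 148), 440 CPM in AngII fibroblasts (436 to 445) and 541 CPM in Vehicle fibroblasts (536 to 546). In macrophages it stood at 6.71, 6.27 and 7.17 CPM. The AngII_VWR library was the low one in fibroblasts, while the macrophage levels had overlapping intervals. Fibroblasts held 89.9% of the Has1 UMIs of AngII_VWR, 96.7% of those of AngII and 89.7% of those of Vehicle. A Has1 UMI was found in 21.0% of AngII_VWR, 47.3% of AngII and 46.0% of Vehicle fibroblasts. Cells of at least 2000 UMIs, thinned to 2000 each (8772, 5604 and 5558 fibroblasts), gave 13.9, 29.0 and 32.0%. In macrophages thinned alike, taken as the background, the shares were 1.30, 1.07 and 1.65%. Macrophages had a median of 4878 UMIs in AngII_VWR, 15174 in AngII and 12871 in Vehicle before thinning.

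Has2, the synthase needed for heart and vessel development in the mouse embryo, stood at 34.2 CPM in AngII_VWR fibroblasts (32.7 to 35.7), 49.9 CPM in AngII fibroblasts (48.3 to 51.4) and 94.1 CPM in Vehicle fibroblasts (91.9 to 96.4). At the 1% class rule the order was the same as for Has1, with Vehicle highest and AngII_VWR lowest. In macrophages Has2 was at or below 0.746 CPM, from 13, 10 and 19 UMIs. Its antisense transcript Has2os, which overlaps it on the other strand, stood at 22.5, 25.9 and 42.5 CPM in fibroblasts of AngII_VWR, AngII and Vehicle. Whether counting used the strand was not stated, so it is not known here whether reads of the pair were kept apart.

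Has3 was close to absent from these classes. It gave 51, 25 and 24 UMIs in fibroblasts of AngII_VWR, AngII and Vehicle, or 0.873, 0.304 and 0.328 CPM, and did not reach the 5 CPM required of a measured gene. Among cell clusters with at least 50 cells of a library, the highest level was 10.3 CPM, in cluster 20 of Vehicle, whose leading genes were the lymphatic endothelial genes Ccl21a and Mmrn1. That cluster held 132 cells over the 3 libraries and stayed unnamed because its blood endothelial markers scored almost as high.

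Ugdh, the enzyme that supplies UDP-glucuronic acid, stood at 969 CPM in AngII_VWR fibroblasts (961 to 977), 938 CPM in AngII fibroblasts (932 to 945) and 2094 CPM in Vehicle fibroblasts (2083 to 2104). Both angiotensin libraries were thus below Vehicle and close to each other. Macrophages held 44.1, 20.1 and 29.4 CPM. Whether Ugdh shares reads with other genes annotated at its locus was not tested.

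The hyaluronidase genes were low everywhere. Hyal1, the lysosomal enzyme, stood at 4.61 CPM in AngII_VWR fibroblasts, 6.61 CPM in AngII fibroblasts and 5.92 CPM in Vehicle fibroblasts, and at 10.3, 13.2 and 15.4 CPM in macrophages. Hyal1 overlaps Naa80 and Hyal3 on the same strand, so its level is uncertain. Hyal2, a membrane-anchored enzyme that cuts long chains, stood at 14.0, 12.4 and 10.8 CPM in fibroblasts and at 30.01, 16.9 and 23.3 CPM in macrophages. Each of the 2 genes was higher in macrophages than in fibroblasts in every library, beyond counting error. Among clusters with at least 50 cells of a library, Hyal2 was highest in cluster 20 of Vehicle and the endothelial-like cluster 17 of AngII, with 72.0 CPM in each, and in cluster 6 of AngII_VWR, with 53.9 CPM. Cluster 6 was led by the resident macrophage genes Cd209f, Folr2, Cd163 and Lyve1.

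Cd44, the main hyaluronan receptor of leukocytes, was also higher in macrophages than in fibroblasts in all 3 libraries. It stood at 237, 234 and 268 CPM in fibroblasts of AngII_VWR, AngII and Vehicle, and at 393 CPM (384 to 402), 558 CPM (550 to 567) and 423 CPM (416 to 430) in macrophages. The AngII library was the high one in macrophages. In the rest class it stood at 632, 582 and 312 CPM. The neutrophil-like cluster 14, of which 90.4% of cells came from AngII_VWR, held 1987 CPM there. Cluster 9, led by Lyz1, Retnla and Ccr2, held 832 CPM in AngII_VWR, 1097 CPM in AngII and 1306 CPM in Vehicle, all above the 339 to 494 CPM of the macrophage-like cluster 1.

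Tnfaip6, the gene of TSG-6, stood at 472 CPM in AngII_VWR fibroblasts (466 to 478), 2466 CPM in AngII fibroblasts (2455 to 2477) and 1746 CPM in Vehicle fibroblasts (1736 to 1756). AngII was the highest library and AngII_VWR the lowest, by far. Thinned fibroblasts held a Tnfaip6 UMI in 26.5% of AngII_VWR, 55.2% of AngII and 49.4% of Vehicle cells, where the unthinned shares were 35.5, 69.1 and 58.7%. Thinned macrophages held one in 1.85, 3.92 and 2.12%, and 5.50, 23.2 and 14.0% unthinned.

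Vcan, the gene of versican, stood at 198 CPM in AngII_VWR fibroblasts (195 to 202), 158 CPM in AngII fibroblasts (155 to 161) and 264 CPM in Vehicle fibroblasts (260 to 268). Vehicle was the high library and AngII the low one. Macrophages held 9.07, 3.68 and 4.42 CPM. Smooth muscle-like cells, which make versican in the vessel wall, formed cluster 11, almost all of it from Vehicle, with 106 CPM there.

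**Figure D1:**
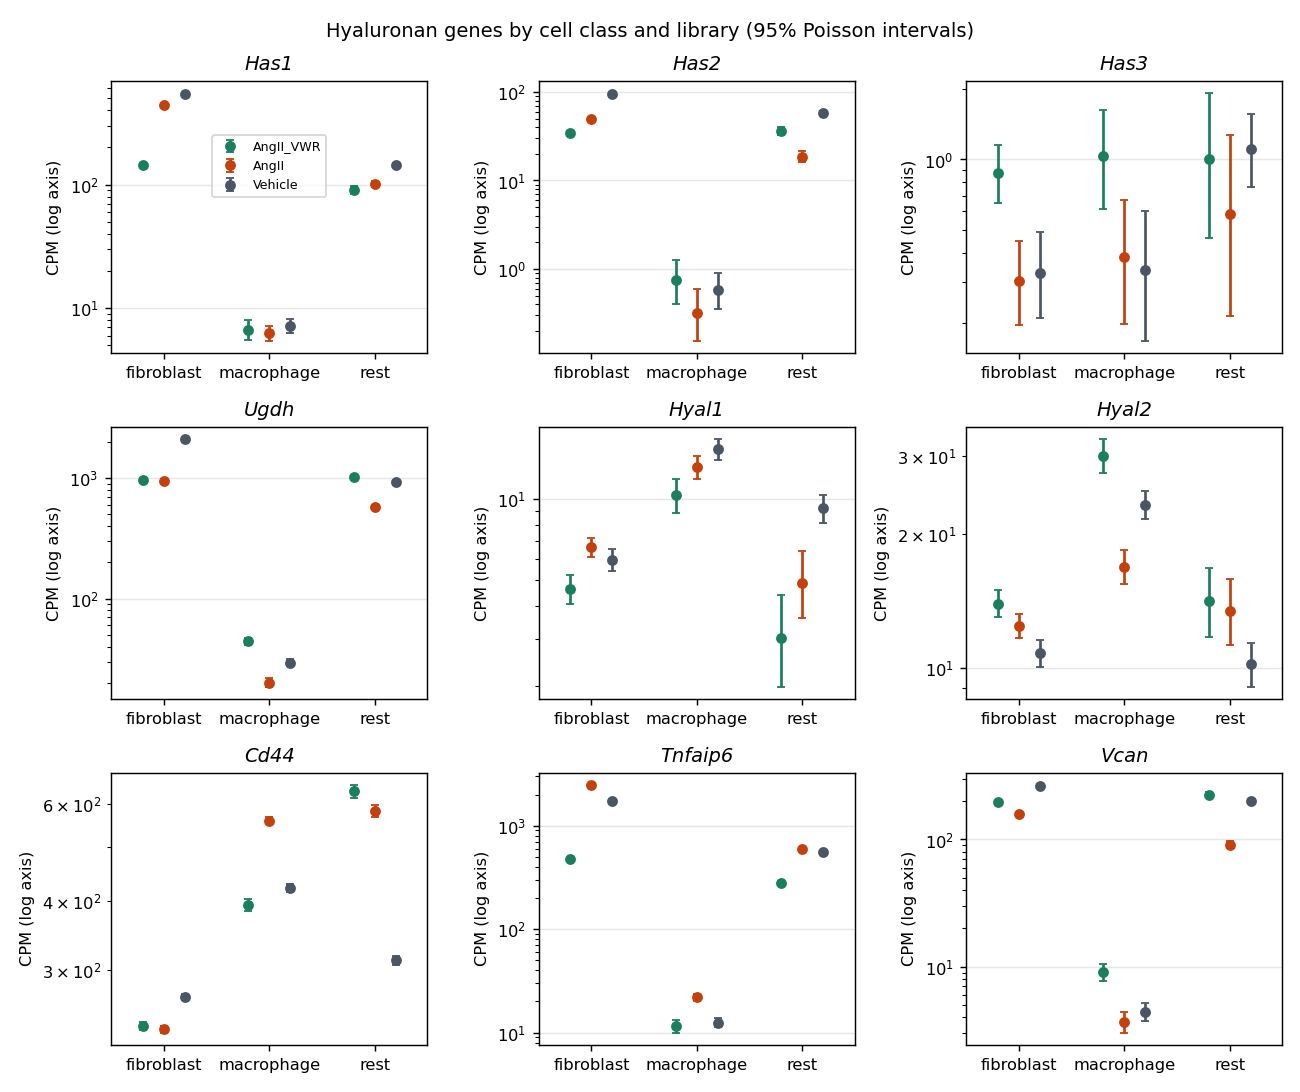
Level of each of the 9 genes (CPM, log axis) in the fibroblast, macrophage and rest classes of AngII_VWR, AngII and Vehicle, with 1 point per library and 95% Poisson intervals. Has1, Has2, Ugdh, Tnfaip6 and Vcan stood far higher in fibroblasts than in macrophages, Hyal1, Hyal2 and Cd44 higher in macrophages, and the Has1 and Tnfaip6 points of AngII_VWR fibroblasts lie below those of the other libraries.

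The rest class was no background for the fibroblast genes. Cells of cluster 3, a fibroblast-like cluster, made up 11.4% of the rest in AngII_VWR, 5.48% in AngII and 10.3% in Vehicle, and held 90.4, 86.3 and 89.8% of the Has2 UMIs of the rest. Levels of Has1, Has2, Ugdh, Tnfaip6 and Vcan in the rest, such as 36.2, 18.5 and 57.6 CPM of Has2 in AngII_VWR, AngII and Vehicle, came largely from cells of cluster 3 that missed the 1% rule. In AngII over Vehicle, 1 of 8 measured members (Cd44) stood at least 1.5-fold higher in the rest, where 20.6% of genes did, and 4 (Has2, Ugdh, Hyal1 and Vcan) lower, where 14.1% did. For AngII_VWR over AngII, 3 of 7 (Has2, Ugdh and Vcan) stood higher there, where 8.94% of genes did, and 1 (Tnfaip6) lower, where 10.8% did.

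The first comparison, AngII against Vehicle, asks how angiotensin II alone bears on these genes. In fibroblasts none of 8 measured members stood at least 1.5-fold higher in AngII, where 6.78% of 10449 measured genes did. Has2, Ugdh and Vcan, 3 of the 8, stood at least 1.5-fold lower, where 4.9% of all measured genes did. Ratios are given as log2 ratios of CPM + 1. Ugdh was 2.23-fold lower in AngII (2.21 to 2.25; log2 ratio −1.16), Has2 was 1.89-fold lower (1.82 to 1.96; −0.90) and Vcan was 1.67-fold lower (1.64 to 1.71; −0.74). Tnfaip6 was 1.41-fold higher (1.40 to 1.42; 0.50), and Has1 had a log2 ratio of −0.30. The median over the 8 members was −0.24, beside −0.07 over all measured genes.

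These 3 calls depended on the class rule and on the weight given to clusters. With the class rule raised to 2% of UMIs, Ugdh had a log2 ratio of −0.37, Has2 0.05 and Vcan −0.25, all within 1.5-fold. With clusters weighted equally they had −0.51, 0.10 and −0.16. Has1, which was not called, turned from −0.30 to 0.22 with the class rule raised to 2%. Cluster 3 held 14.9% of the fibroblast UMIs of AngII and 37.8% of those of Vehicle.

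**Figure D2:**
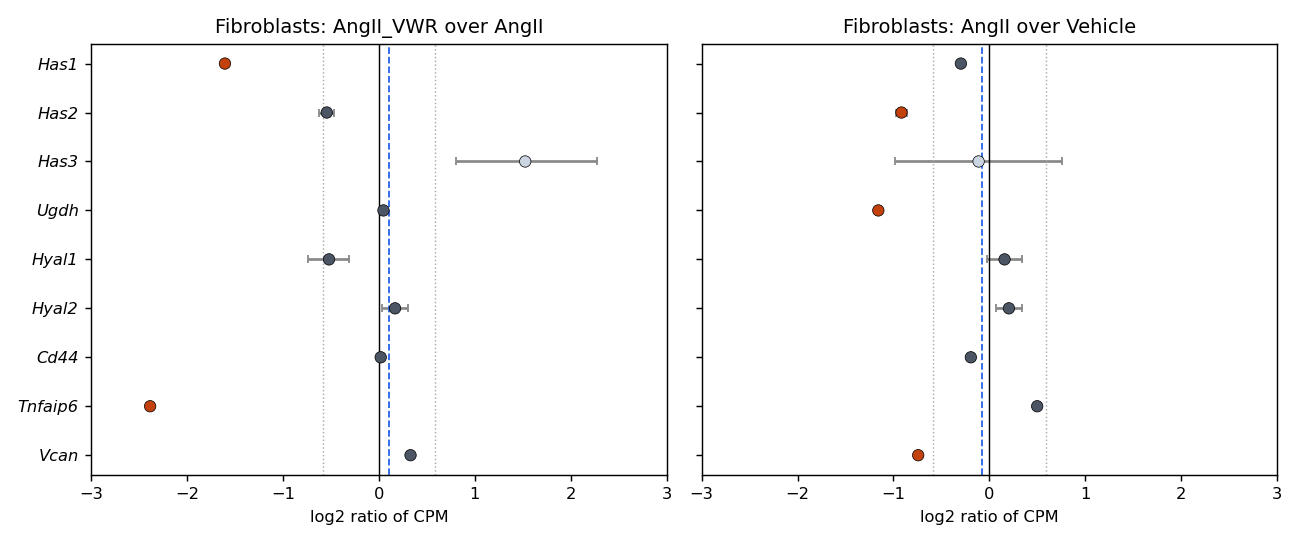
Ratio of each gene's CPM in fibroblasts as log2, AngII_VWR over AngII on the left and AngII over Vehicle on the right, with 95% counting intervals. Orange points are at least 1.5-fold apart, dotted lines mark 1.5-fold, the dashed blue line is the median of all measured genes and the pale point is Has3, which was below the limit for a measured gene. Has1 and Tnfaip6 lie far to the left in AngII_VWR over AngII, and Has2, Ugdh and Vcan in AngII over Vehicle.

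In AngII_VWR against AngII, the comparison that asks what running adds, none of 8 measured members was at least 1.5-fold higher in fibroblasts, where 7.07% of 10589 genes were. Has1 and Tnfaip6, 2 of the 8, were at least 1.5-fold lower, where 4.88% of genes were. Tnfaip6 was 5.22-fold lower in AngII_VWR (5.16 to 5.29; log2 ratio −2.38) and Has1 was 3.04-fold lower (2.97 to 3.12; −1.60). The other synthase, Has2, was 1.46-fold lower (1.38 to 1.54; −0.53), short of the mark. It passed 1.5-fold lower under 4 of 14 alternatives, with log2 ratios of −1.10 with the class rule raised to 2%, −0.99 without clusters almost confined to 1 library, −0.82 with clusters weighted equally and −0.63 relative to all genes. Ugdh had a log2 ratio of 0.05, Cd44 of 0.02 and Vcan of 0.33. Without clusters almost confined to 1 library these 3 turned in sign, to −0.49, −0.24 and −0.15, all within 1.5-fold. The median over the members was −0.21, beside 0.10 over all measured genes. Both comparisons share the AngII library, so a high or low value there enters each.

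Has1 and Tnfaip6 stayed at least 1.5-fold lower in AngII_VWR under all 14 alternative settings, at log2 ratios of −1.93 to −1.22 and −2.60 to −2.06. Other features of the libraries moved with this difference. AngII_VWR fibroblasts carried fewer UMIs per cell, and macrophage markers stood higher there, as given above. A list of 16 early response genes, which tissue digestion can induce, had a median log2 ratio of −0.31 with 6 of 16 at least 1.5-fold lower. Over all measured genes the median was 0.10 and 4.88% were that much lower. In macrophages the median of the list was 0.19 in AngII_VWR over AngII, beside 0.17 over all measured genes. In AngII over Vehicle it was 0.01 in fibroblasts, beside −0.07, and −0.88 in macrophages, beside −0.01. The list was chosen after the results were known. AngII_VWR was also counted with another version of Cell Ranger. The part of digestion, of free RNA and of the software version in the result was not tested. With fibroblasts below 2000 UMIs left out and the others thinned to 2000, the ratios of Has1 and Tnfaip6 stayed past 1.5-fold. That kept 8772 of 10913 fibroblasts in AngII_VWR and 5604 of 6081 in AngII. It evened the depth per cell and did not test the other features.

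The cells were clustered without the 9 genes and the wider gene lists used here, so that clusters did not follow from them. Among clusters with at least 50 cells of a library, Has1 and Tnfaip6 were highest in AngII and Vehicle in cluster 8, led by Saa3, Cfd, Car3 and Ptx3, which held adipocyte genes as well and stayed unnamed. Tnfaip6 stood there at 765 CPM in AngII_VWR, 5117 CPM in AngII, against 3321 CPM in Vehicle. Has1 stood there at 375, 1053 and 1334 CPM. The AngII_VWR level was the low one for each gene. Cluster 7 gave 38 cells in Vehicle, with Tnfaip6 at 4151 CPM (3995 to 4312). In AngII_VWR Tnfaip6 stood higher than in cluster 8 in cluster 3, at 962 CPM (945 to 979), and in cluster 7, at 941 CPM (845 to 1045). Has1 there stood at 396 CPM in cluster 7 (335 to 466) and 375 CPM in cluster 8 (356 to 395), with intervals that overlapped.

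Ugdh, Has2, Vcan and Cd44 were instead highest in cluster 3 among fibroblast clusters with at least 50 cells of a library. Cluster 3 was led by Cd55, Sema3c and Dact2. Ugdh stood there at 3567 CPM in AngII_VWR, 3827 CPM in AngII, against 4441 CPM in Vehicle, where no other fibroblast cluster exceeded 2326 CPM. Has2 stood there at 135, 169 and 219 CPM, Vcan at 613, 520 and 511 CPM, and Cd44 at 646, 626 and 524 CPM. Within this cluster Vcan and Cd44 were no lower in AngII than in Vehicle. Cluster 3 held 69.5% of the Ugdh UMIs of AngII_VWR fibroblasts, 58.5% of those of AngII and 79.0% of those of Vehicle.

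Cluster 7, led by Thbs4, Ecrg4 and Kcnma1, was almost confined to AngII, which gave 95.4% of its cells and for which it held 40.1% of fibroblast UMIs. It held 46.6% of the Tnfaip6 UMIs of AngII fibroblasts, 35.0% of their Has1 UMIs and 12.9% of their Ugdh UMIs. Its AngII levels were 2863 CPM of Tnfaip6, 384 CPM of Has1, 301 CPM of Ugdh and 63.2 CPM of Vcan. Leaving out the clusters with at least 90% of their cells from 1 library left Tnfaip6 and Has1 past 1.5-fold lower in AngII_VWR. In AngII over Vehicle it left 1 member at least 1.5-fold lower in place of 3.

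**Figure D3:**
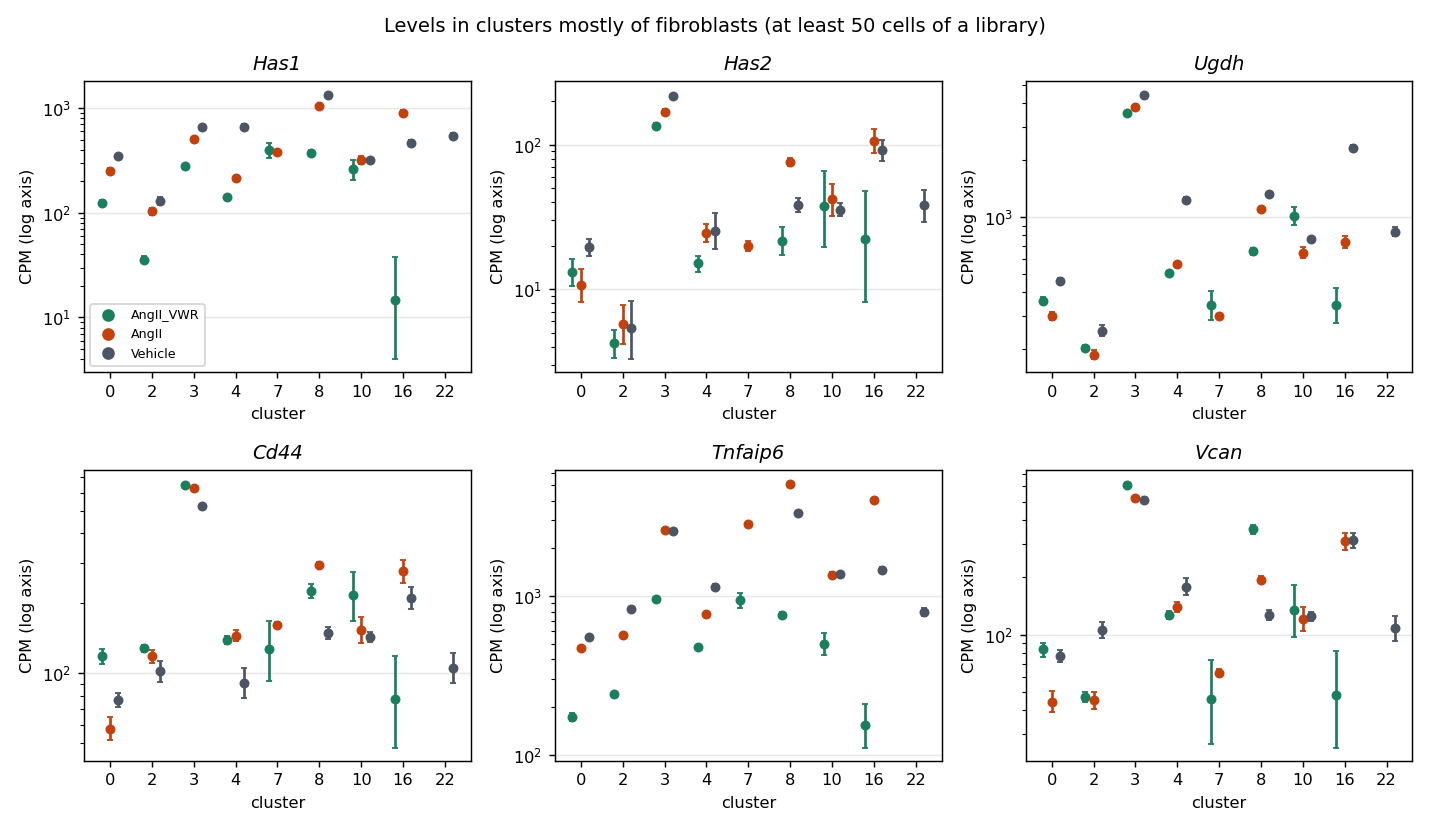
Level of 6 genes (CPM, log axis) in the clusters of which at least 80% were fibroblasts, for AngII_VWR, AngII and Vehicle wherever a library gave at least 50 cells, with 95% Poisson intervals and clusters at 0 UMIs left out. Tnfaip6 is lower in AngII_VWR than in AngII in each cluster that has both, and Ugdh, Has2, Vcan and Cd44 peak in cluster 3.

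Within fibroblast clusters, Tnfaip6 was lower in AngII_VWR than in AngII in 8 of 8 clusters with at least 50 cells of each, at least 1.5-fold lower in all 8, with a median log2 ratio of −1.44 and a range of −4.69 to −0.70. Has1 was lower in 7 of 8 and at least 1.5-fold lower in 6, with a median of −0.94. In cluster 7 Has1 stood at 396 CPM in AngII_VWR, against 384 CPM in AngII, from 56 and 1960 cells, with intervals that overlapped. Has2 was lower in 7 of 8, with a median of −0.52. Some of these values rest on few AngII_VWR UMIs, with 0 in cluster 7, 6 in cluster 16 and 12 in cluster 10. The fold intervals of clusters 0, 2 and 10 included 1. Clusters of 1 library share their depth and preparation, so they are not replicates.

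For AngII over Vehicle, Ugdh was lower in 7 of 7 clusters and at least 1.5-fold lower in 3, with a median log2 ratio of −0.42. In cluster 3 it was 1.16-fold lower (1.15 to 1.17). Vcan was lower in 5 of 7, with a median of −0.04, and Has2 in 3 of 7, with a median of 0.08. Cd44 was higher in 6 of 7, with a median of 0.26, while over the whole class it had a log2 ratio of −0.19. For Has2, Vcan and Cd44 the class ratio and the median within clusters therefore differed, in sign for Has2 and Cd44. The Has2 median was the value of cluster 2, from 43 UMIs in AngII and 20 in Vehicle. Its fold interval was 0.61 to 1.91, so the sign of that median is within counting error.

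**Figure D4:**
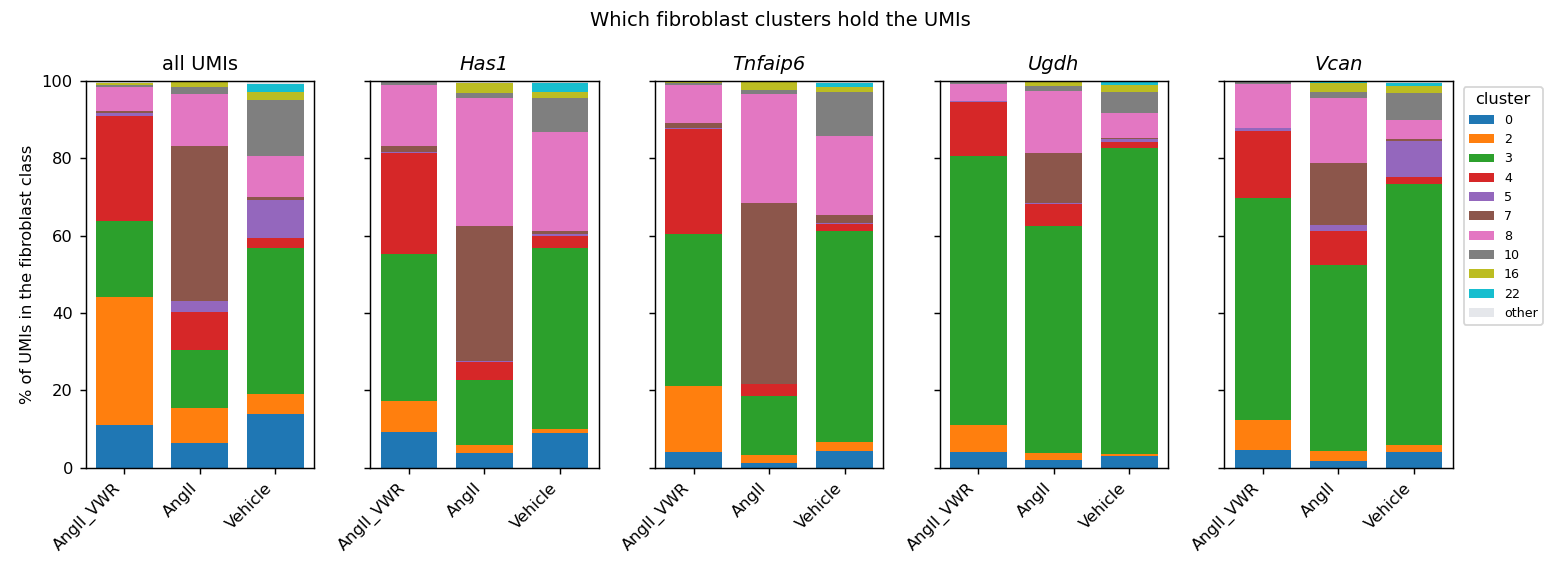
Share of fibroblast UMIs (percent) that lies in each cluster, for AngII_VWR, AngII and Vehicle, over all genes in the left panel and for Has1, Tnfaip6, Ugdh and Vcan in the others. Cluster 3 holds 19.7, 14.9 and 37.8% of all UMIs and 69.5, 58.5 and 79.0% of Ugdh UMIs, and cluster 7 is large only in AngII.

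Has1 and Tnfaip6 were found in the same cells more often than their separate shares would give. Among thinned fibroblasts a Tnfaip6 UMI was present in 46.7% of AngII_VWR cells with a Has1 UMI (43.8 to 49.5%) and 23.2% of those without. In AngII the shares were 74.0% (71.8 to 76.1%) and 47.6%, and in Vehicle 70.0% (67.9 to 72.2%) and 39.6%. Has2 and Vcan went together likewise: Vcan was present in 51.2% of AngII_VWR cells with Has2 and 18.3% of those without, in 40.7 and 14.9% in AngII, and in 46.3 and 25.7% in Vehicle. Cells of 1 library are not replicates, and these shares describe the libraries.

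Across 54 profiles, each 1 cluster in 1 library, Tnfaip6 was the gene most like Has1 among 8871 genes, with a Pearson correlation of 0.93, followed by Insyn1 and Ugdh with 0.87 each. Ugdh was most like Has2 (0.92), followed by Gfpt2 (0.91), which makes the precursor of UDP-N-acetylglucosamine, and the stromal gene Cd248 (0.90). Vcan was closest to Axl (0.93), Fbn1 and Cd248 (0.91 each). Over these profiles, which mix fibroblast and other clusters, Cd44 had −0.20 with Has1 and −0.08 with Has2. It was closest to Cd80, a co-stimulatory molecule of antigen-presenting cells, with 0.83. Among fibroblast cells Cd44 was more frequent with Has1 than without, as given above. Profiles share libraries and depth, and the contrast between fibroblast and other clusters enters all of these values.

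Genes that supply the sugar nucleotides stood beside Ugdh. Of 12 measured in fibroblasts, 5 were at least 1.5-fold lower in AngII than in Vehicle and 1 was higher, beside 4.9% lower and 6.78% higher over all measured genes, with a median log2 ratio of −0.13. As for Ugdh, the lower calls moved with the class rule and cluster weights: the 5 became 0 with the class rule raised to 2%, 1 (Ugp2) with clusters weighted equally and 3 without clusters almost confined to 1 library. Ugp2, which makes UDP-glucose, stood at 189 CPM in AngII, against 448 CPM in Vehicle. Gfpt2, which starts the hexosamine pathway, stood at 472 CPM in AngII, against 899 CPM in Vehicle. Uap1, which makes UDP-N-acetylglucosamine, stood at 353 CPM in AngII, against 619 CPM in Vehicle, and Gnpnat1, an earlier step, at 31.0 and 61.4 CPM. Hexokinase Hk2 was the higher one, with 191 CPM in AngII, against 122 CPM in Vehicle, within 1.5-fold with clusters weighted equally and without clusters almost confined to 1 library. In AngII_VWR over AngII, Hk2 was the 1 of 12 past 1.5-fold, at 124 CPM in AngII_VWR, against 191 CPM in AngII, beside 4.88% of all genes lower, and the median was 0.08. Hk2 came within 1.5-fold under 5 of 14 alternatives there.

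Among other hyaluronan binders and crosslinkers, 5 of 17 were measured in fibroblasts, with 2 at least 1.5-fold higher in AngII than in Vehicle and none lower, beside 6.78% higher and 4.9% lower over all measured genes. Ptx3, a pentraxin that works with TSG-6 to crosslink hyaluronan in the ovary of the mouse, stood at 22.9 CPM in AngII_VWR, 167 CPM in AngII, against 79.9 CPM in Vehicle, the same order as Tnfaip6. Itih5, of the family of heavy chains that TSG-6 transfers, stood at 43.4, 84.1 and 122 CPM. These 2 were, in AngII_VWR over AngII, at least 1.5-fold lower and none was higher, beside 4.88% lower and 7.07% higher over all genes. Hapln1 to Hapln4, the link proteins, were below the limit of measurement in both comparisons.

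Of the genes for hyaluronan breakdown besides Hyal1 and Hyal2, 4 of 10 were measured in fibroblasts. Cemip2, a cell surface protein studied as a hyaluronidase, stood at 14.5 CPM in AngII_VWR, 32.9 CPM in AngII, against 10.8 CPM in Vehicle, past 1.5-fold in each comparison, except with clusters weighted equally in AngII_VWR over AngII. The lysosomal enzymes Gusb and Hexa stayed within 1.5-fold in both. Of the other receptors and membrane linkers, 8 of 10 were measured, with none higher and 1 lower in AngII than in Vehicle, where 6.78% and 4.9% of all genes were. In AngII_VWR over AngII, 2 were higher and 1 lower, where 7.07% and 4.88% were. The lower ones, Lyve1 in AngII over Vehicle and Tlr2 in AngII_VWR over AngII, were not called under 3 and 5 of the 14 alternatives. The 2 higher ones, Lyve1 with 13.9 CPM in AngII_VWR, against 3.05 CPM in AngII and Stab1 with 12.2 and 4.17 CPM, are macrophage and lymphatic genes.

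Versican binds other matrix proteins and is cut by proteases of the ADAMTS family. Tnc, the gene of tenascin C, which the versican end domain binds, stood at 20.9 CPM in AngII_VWR, 78.9 CPM in AngII, against 2.19 CPM in Vehicle. Adamts4, a protease that cuts versican, stood at 9.62, 73.0 and 11.8 CPM, and Adamts5, another, at 214, 229 and 487 CPM. The elastic fibre genes Fbn1 and Eln went opposite ways in AngII over Vehicle, with Fbn1 at 833 CPM in AngII, against 1344 CPM in Vehicle and Eln at 1079 and 666 CPM. Of 6 measured partners, 3 stood higher and 2 lower in AngII than in Vehicle by at least 1.5-fold, and of 5 proteases 2 were higher and 1 lower, beside 6.78% higher and 4.9% lower over all measured genes. With the class rule raised to 2% the 2 lower partners and the 1 lower protease became 0, and without clusters almost confined to 1 library 1 partner (Tnc) was higher and none lower. In AngII_VWR over AngII, 2 partners (Tnc and Fbn2) and 1 protease (Adamts4) were lower and none was higher, beside 4.88% lower and 7.07% higher over all genes. Without clusters almost confined to 1 library the 2 lower partners became 0. Of 17 measured genes for chondroitin sulfate chains, 3 were at least 1.5-fold higher in AngII than in Vehicle, among them Csgalnact1 with 32.7 CPM in AngII, against 7.65 CPM in Vehicle, and 2 were higher in AngII_VWR than in AngII, beside 6.78% and 7.07% of all genes. The 2 became 0 relative to all genes.

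In macrophages, 1 of 6 measured members, Tnfaip6, was at least 1.5-fold higher in AngII than in Vehicle, where 6.8% of 9820 genes were, and none was lower, where 6.29% were. Tnfaip6 stood at 21.8 CPM in AngII macrophages and 12.4 CPM in Vehicle macrophages, beside 2466 and 1746 CPM in fibroblasts. The call was lost under 4 of 14 alternatives: its log2 ratio was −1.21 with doublets kept and −0.04 with clusters weighted equally, both turned in direction, 0.27 as a mean over cells and 0.48 with cells of both rules counted. The medians were −0.19 over the members and −0.01 over all measured genes. Cd44 was 1.32-fold higher in AngII (1.29 to 1.35). Lyve1, a hyaluronan receptor of resident macrophages, stood at 1074 CPM in AngII_VWR, 465 CPM in AngII and 1263 CPM in Vehicle macrophages.

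In AngII_VWR over AngII, 3 of 7 measured members (Ugdh, Hyal2 and Vcan) were at least 1.5-fold higher in macrophages, where 14.3% of 10188 genes were, and 1 (Tnfaip6) was lower, where 5.03% were. The Tnfaip6 call was lost with doublets kept, where its log2 ratio turned to 0.13, and with clusters weighted equally, where it was −0.58 and Has1 stood past 1.5-fold lower instead (−0.92). The median log2 ratio over all genes was 0.17, and over the members 0.08. Hyal2 was 1.78-fold higher (1.57 to 2.01), or 0.62 on the log2 scale after the median of all genes was taken off. Ugdh was 2.20-fold higher (1.97 to 2.44) and Vcan 2.46-fold higher (1.92 to 3.16). Both are fibroblast genes here, and 8 of 8 fibroblast markers also stood higher in AngII_VWR macrophages, with sums of 1461 CPM in AngII_VWR, 529 CPM in AngII, against 670 CPM in Vehicle. The 4 measured versican partners, Fbln1, Fbln2, Fbn1 and Eln, were all at least 1.5-fold higher as well. What fibroblast RNA gave to these values was not tested. Cd44 was 1.42-fold lower in AngII_VWR (1.38 to 1.46).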

How the data were processed

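Per the labels, cells from peeled, enzyme-digested adventitia went into 3′ droplet libraries aimed at 10000 cells each. The deposited matrices hold raw UMI counts per gene and barcode, written by Cell Ranger 7.1.0 for AngII_VWR and 7.0.1 for AngII and Vehicle, per the file headers. The genome was mm10 per the submitters' processing notes, and whether intronic reads were counted is not given in the sources used here. Barcodes numbered 19633, 10515 and 15093, with 105679209, 141570158 and 165977330 UMIs.

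The filter asked for 300 or more genes, 500 or more UMIs and no more than 10% of UMIs from mitochondria. Scrublet (scanpy 1.11.5) scored doublets, and 0.8% of barcodes per 1000 cells with the top scores were taken out (2894, 784 and 1537). Its own threshold would have called 0, 135 and 248. Clusters came from 2000 variable genes without the members and wider lists, 30 components, 15 neighbours and Leiden (leidenalg 0.10.2) at resolution 0.8, with no batch correction, and were named from fixed markers.

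UMIs were summed per class and library and scaled to CPM. Intervals are exact Poisson for CPM, exact conditional for ratios and Clopper-Pearson for shares, all at 95%. A gene was measured at 5 CPM in either library and 10 UMIs over both. On data simulated with Poisson counts and 200 altered genes, ratio intervals covered the true ratio for 95.1% of 10132 genes in fibroblasts, AngII over Vehicle. The share was 95.2% of 10191 in AngII_VWR over AngII. Since these counts held counting error alone, this checks the calculation and not variation between cells, mice or libraries. All members were named; of each wider list up to 4 genes of at least 20 CPM with the largest ratios could be named, and others named to complete a count of 5 or fewer or an account were chosen after their values were seen, as was the early response list. The members and lists were chosen with earlier results of these data known. Ratios of AngII_VWR over Vehicle were not used. The values of 1 gene of the wider lists are not reported here. Alternatives covered scaling, pseudocount, filters, doublets, class thresholds and cluster weights.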

Additional observations from a re-analysis of the deposited data

Results flagged for a closer look

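Cd44 in AngII over Vehicle had a log2 ratio of 0.90 in the rest class and −0.19 in the fibroblast class, opposite directions. The fibroblast value kept its sign under 11 of 14 alternatives, and with the class rule raised to 2% it was 0.52. The smooth muscle-like cluster 11, where Cd44 stood at 38.4 CPM in Vehicle, made up 1.57% of the rest in AngII and 17.8% in Vehicle. Cluster 9, led by Lyz1, Retnla and Ccr2, made up 11.5% of the rest in AngII and 3.08% in Vehicle. It held 47.1% of the Cd44 UMIs of the rest in AngII and 31.3% in Vehicle. Cluster 18, with Clec9a among its leading genes, made up 6.26 and 1.26% of the rest and held 18.2 and 9.98% of these UMIs. The difference between the classes was not tested, since each group is 1 library.

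Has2 in AngII_VWR over AngII had a log2 ratio of 0.93 in the rest class and −0.53 in the fibroblast class. Cells of the fibroblast-like cluster 3 made up 11.4% of the rest in AngII_VWR and 5.48% in AngII. This difference was not tested either.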

How the results depend on the processing

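No paired analysis was possible because each group is 1 library, and for the same reason no replicate could be left out. Of the 14 alternatives, 2 (leaving out clusters of 1 library, and thinning to 2000 UMIs) were chosen after seeing the data. In fibroblasts, AngII over Vehicle, the 0 members at least 1.5-fold higher became 1 with the mean over cells, with class thresholds of 2% and 0.6%, and with thinned cells. The 3 lower became 0 with those thresholds and with equal cluster weights, and 1 without clusters of 1 library. Has2 reversed to 0.047 with those thresholds and 0.10 with equal weights. In AngII_VWR over AngII the 2 lower became 4 with equal weights, and 3, with Has2 added, with those thresholds, after division by the median ratio of all genes and without clusters of 1 library. In macrophages, AngII over Vehicle, the 1 higher became 0 with the mean over cells, with doublets kept, with cells of both rules counted and with equal weights. The 0 lower became 1 with the mean over cells, with cells of both rules counted and with thinning, 5 with doublets kept and 3 with equal weights. Tnfaip6 reversed there to −1.21 with doublets kept and −0.037 with equal weights. In AngII_VWR over AngII the 1 lower in macrophages became 2 after division by the median ratio of all genes and 0 with doublets kept, where Tnfaip6 reversed to 0.13. With equal weights it stayed 1, but Has1 (−0.92) took the place of Tnfaip6 (−0.58). The causes were not tested. Has3 in every class and Has2 in macrophages were below the limit for a measured gene and got no call.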
